A study of Homo sapiens with 12 samples.

Results

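The RNA levels of 8 genes for amino acid transporters of the plasma membrane, SLC7A11, SLC7A5, SLC7A1, SLC3A2, SLC1A4, SLC1A5, SLC38A1 and SLC38A2, were followed in human lymphoma cells kept at low or ordinary oxygen. The 8 genes were taken by name, not by a rule on their values, through the 10 array probes annotated to them. They and the gene lists below were chosen with earlier results of these data known, so the choice was not blind to them. All 8 were among the 9621 genes tested. RNA from the cell lines HLY-1 (HLY) and SUDHL2, both established from diffuse large B-cell lymphoma (DLBCL) and cultured in serum-supplemented RPMI-1640 medium, was hybridised to Illumina HumanHT-12 v4 BeadChip arrays. The 4 groups were HLY at 1% oxygen (hypoxia), HLY at 21% oxygen (normoxia), SUDHL2 hypoxia and SUDHL2 normoxia, each with 3 arrays that the labels call biological replicates. Neither line carried an added transgene or drug according to the labels, and the time spent at low oxygen is not given for these arrays in the sources used here. Each line stands for a single tumour, so replicates describe that line only. In bulk RNA of this kind, fewer cells of a type and less RNA per cell cannot be told apart.

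Cells take up most amino acids through carriers of the solute carrier (SLC) families. SLC7A5 and SLC7A11 are light chains that reach the membrane joined to the heavy chain SLC3A2, the first carrying large neutral amino acids such as leucine and the second bringing in cystine, the precursor of cysteine and glutathione, in exchange for glutamate. SLC7A1 carries arginine and lysine, and SLC1A4 and SLC1A5 exchange small neutral amino acids including serine and alanine, SLC1A5 also glutamine. SLC38A1 and SLC38A2 carry glutamine and alanine inward with sodium. Several of these genes are known targets of ATF4, the transcription factor whose translation rises in the integrated stress response when amino acids are short. Proliferating lymphocytes and lymphoma cells are known for high demand for leucine, glutamine and cystine.

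Values are log2 intensities after background correction and quantile normalization, and a probe counted as above background on an array when its detection p was under 0.01. A gene was said to rise or fall, or to pass the test, when its adjusted p by limma, corrected over all 9621 genes by the Benjamini and Hochberg method, was under 0.05. With 3 arrays against 3 an exact permutation test cannot give a two-sided p below 0.1, so the limma fit over all 4 groups carries the comparisons. Array medians lay between 111 and 149 intensity units, and 12322 to 14925 of 47230 probes were above background per array.

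The arrays did not group by line label, and every result below has to be read with that in view. Whether the line names were exchanged in either oxygen condition was not tested, and if they were, each response under a label is a comparison of lines as well as of oxygen. Across 9621 genes the median correlation between HLY hypoxia and SUDHL2 normoxia arrays was 0.984 and that between HLY normoxia and SUDHL2 hypoxia arrays 0.976, close to the 0.983 to 0.992 found within groups. Hypoxia and normoxia arrays of the same line label correlated at 0.755 for HLY and 0.754 for SUDHL2. By distance over the 8 transporters alone, 12 of 12 arrays lay closest to a group of the other line label. Hypoxia-induced genes followed the oxygen label, since ANKRD37 was higher by 2.99 under the HLY label and 1.84 under the SUDHL2 label, and KDM3A, a histone demethylase induced by HIF, by 1.68 and 1.15. The glucose transporter SLC2A1 rose by 2.30 under the SUDHL2 label and measured 0.13 (adjusted p = 0.401, limma) under the HLY label. For each transporter the response under each label is therefore given with 3 further comparisons in which that split cancels or is absent: the average of both responses, HLY hypoxia against SUDHL2 normoxia, and SUDHL2 hypoxia against HLY normoxia. The last 2 compare like arrays at different oxygen, so that a line difference and an oxygen effect cannot be told apart in them if the line labels are right.

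B-cell markers moved with the same split, in which 51.9% of all genes were called in opposite directions under the labels. Of 8 listed, 6 were measured, and all 6 fell under the HLY label and rose under the SUDHL2 label (limma), while none passed the test in the average response, where 1 had an unadjusted p under 0.05. The HLY fall of BLNK is a fitted value only. It was above background on 0 of 3 arrays in HLY hypoxia and 1 of 3 in HLY normoxia, so that fall is no measured difference. Mean log2 levels in HLY hypoxia, SUDHL2 normoxia, HLY normoxia and SUDHL2 hypoxia ranged over the 6 genes from 4.63 to 5.54, from 4.70 to 6.49, from 5.60 to 12.14 and from 6.28 to 11.90. CD79B, a chain of the B-cell receptor, was above background on 0 of 3 arrays in HLY hypoxia and in SUDHL2 normoxia, and PAX5 was not above background in any group. Of 4 activated B-cell and plasma-cell markers, IRF4, PRDM1 and XBP1 were higher in HLY hypoxia than in HLY normoxia and lower in SUDHL2 hypoxia than in SUDHL2 normoxia. The fourth, FOXP1, measured 6.74 and 6.91 in HLY hypoxia and normoxia and 6.93 and 6.10 in SUDHL2, higher in SUDHL2 hypoxia (adjusted p = 0.0195, limma). Of 5 fibroblast and epithelial markers, EPCAM, an epithelial adhesion molecule, was above background on 3 of 3 arrays in HLY normoxia and SUDHL2 hypoxia (means 10.22 and 9.78) and on 0 of 3 in the other groups, and the other 4 were not above background. Of the T-cell and NK-cell markers CD3D, CD3E and NKG7 were not above background, and CD2 and CD7 were on at most 2 of 3 arrays of a group. Among the myeloid markers LYZ was above background on at most 2 of 3 arrays of a group, CD14 on 1 array in all, and CSF1R on none. The part of these marker differences in the transporter results was not tested.

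Under the HLY label all 8 transporters were higher in hypoxia, and under the SUDHL2 label 6 of the 8 were lower in hypoxia. Of all genes, 65.5% were called in the HLY response, 66.2% in the SUDHL2 response and 73.8% in the difference between them, so a call in these comparisons was the common outcome. Higher and lower calls were nearly balanced over all genes (3185 and 3119 for HLY, 3200 and 3171 for SUDHL2). The median log2 change of the 8 genes was 1.29 for HLY and -0.94 for SUDHL2, against -0.01 and 0.02 over all genes. With SLC7A11 and SLC1A4 set at the bounds that background allows, the medians were 1.10 and -0.94. The difference of the responses passed the test for 6 of 8, each more negative for SUDHL2, and did not for SLC7A1 and SLC3A2.

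**Figure D1:**
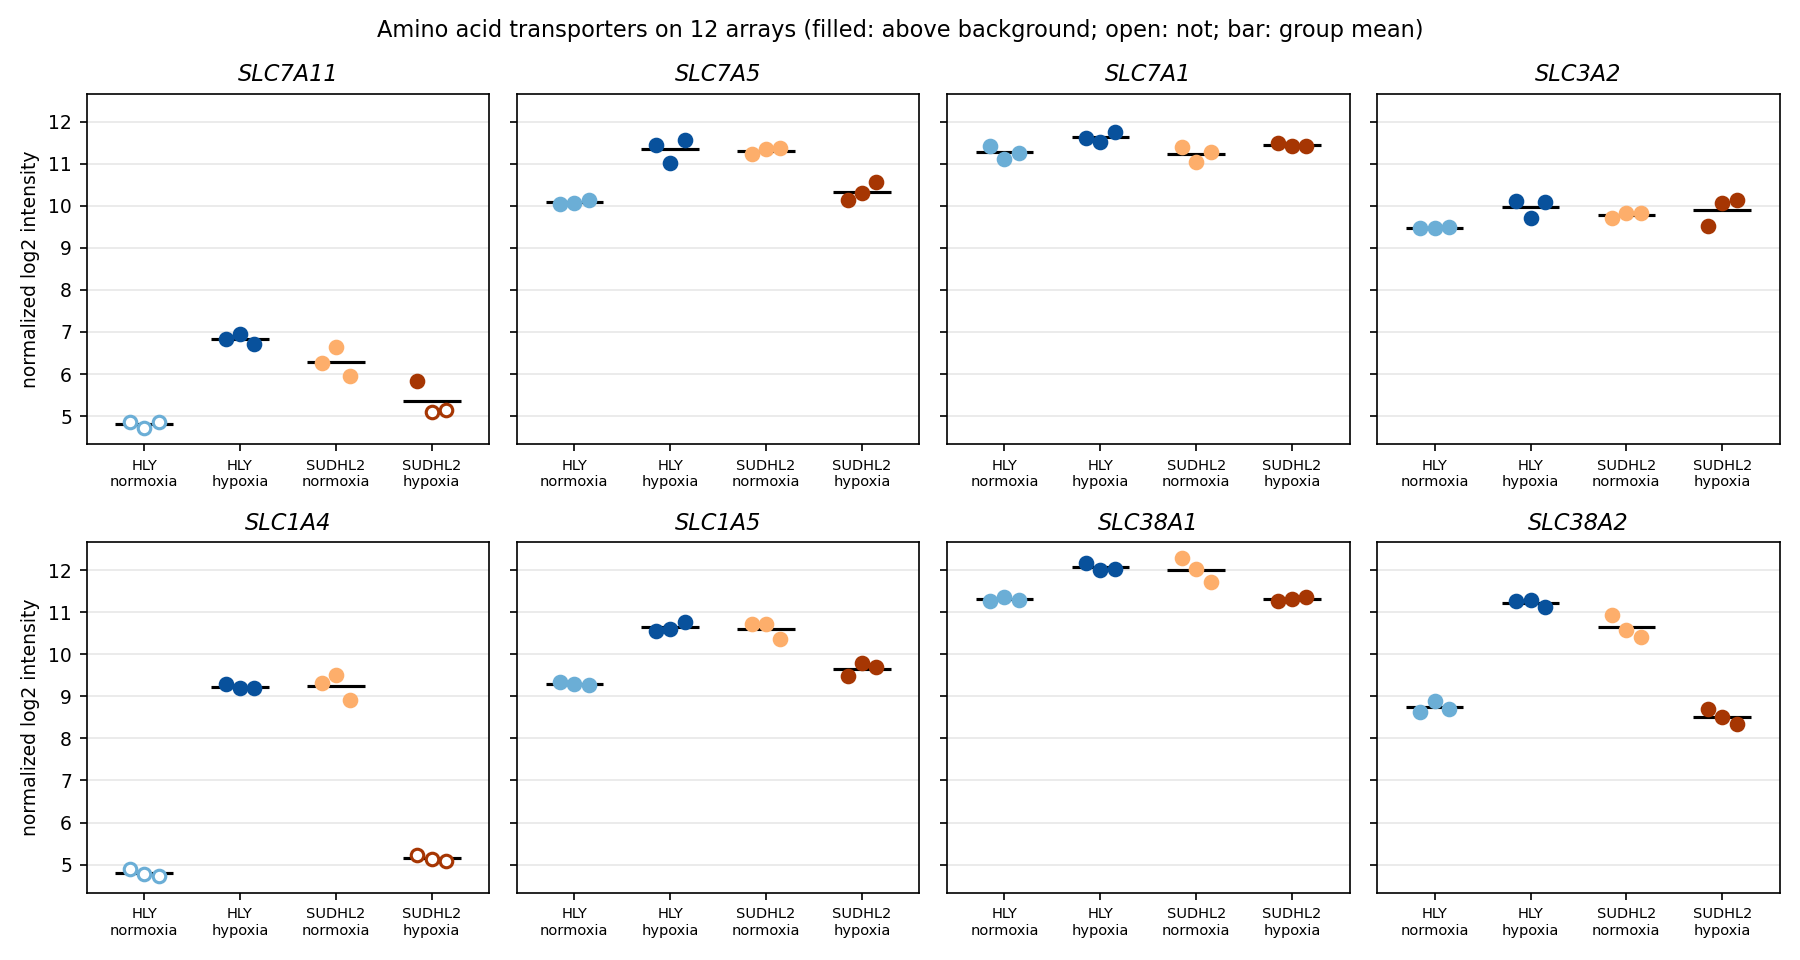
Normalized log2 intensity of the 8 transporter genes on each of the 12 arrays, a panel per gene; filled points were above background, open points were not, and bars mark group means. In 6 panels HLY hypoxia and SUDHL2 normoxia sit high together and HLY normoxia and SUDHL2 hypoxia low together, most widely for SLC1A4, while SLC7A1 and SLC3A2 stay within a narrow range.

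SLC1A4 (ASCT1), which carries alanine, serine and cysteine, had the widest range of the 8. Its log2 values were 9.29, 9.21 and 9.19 in HLY hypoxia and 4.89, 4.77 and 4.73 in HLY normoxia. In SUDHL2 they were 5.22, 5.14 and 5.09 in hypoxia and 9.31, 9.50 and 8.91 in normoxia. The gene was thus above background on 3 of 3 arrays in HLY hypoxia and SUDHL2 normoxia and on 0 of 3 in each of the other groups, where only an upper bound is known. As deposited, its intensities ran from 459 to 1163 in the high groups and from 107 to 151 in the low ones. The HLY response was at least 10.1-fold higher in hypoxia (adjusted p = 2.93e-12, limma) and the SUDHL2 response at least 9.53-fold lower (adjusted p = 6.45e-12). By size of fitted change it stood at place 227 of 9621 genes in the HLY response and at place 269 in the SUDHL2 response. HLY hypoxia and SUDHL2 normoxia overlapped, with a difference of -0.01 (95% CI -0.32 to 0.30, adjusted p = 0.985, limma), and between HLY normoxia and SUDHL2 hypoxia no level can be compared because neither was above background.

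The bases ahead of an SLC1A4 transcription start are shown because this gene moved most and its window holds a match to the element bound by ATF4. They span chr2:64989149-64989398 of GRCh38.p14 on the plus strand, from RefSeq, and the 7 capitals at the end belong to the match, which runs 1 base past the printed stretch.
SLC1A4 promoter: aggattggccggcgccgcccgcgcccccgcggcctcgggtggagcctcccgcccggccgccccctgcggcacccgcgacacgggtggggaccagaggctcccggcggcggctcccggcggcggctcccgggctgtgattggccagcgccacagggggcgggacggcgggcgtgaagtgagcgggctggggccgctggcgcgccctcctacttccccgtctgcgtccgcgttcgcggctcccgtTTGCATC

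SLC1A5 (ASCT2), the main glutamine exchanger of many tumour cells, moved the same way with a smaller span. HLY hypoxia arrays read 10.55, 10.61 and 10.76, and HLY normoxia arrays 9.34, 9.30 and 9.28. SUDHL2 hypoxia arrays read 9.49, 9.78 and 9.69, and SUDHL2 normoxia arrays 10.72, 10.73 and 10.37. Hypoxia arrays stood apart from normoxia arrays under each label, as they did for 71.9% (HLY) and 66.9% (SUDHL2) of all genes. The gene rose by 1.34 ± 0.13 (SE, n = 3 per group) on the log2 scale in HLY hypoxia, or 2.52-fold (adjusted p = 7.05e-07, limma), and fell by 0.95 in SUDHL2 hypoxia, a level 1.93-fold lower (adjusted p = 2.30e-05). Between the high groups the difference was 0.04 (95% CI -0.25 to 0.32). SUDHL2 hypoxia stood above HLY normoxia on every array, by 0.35 (95% CI 0.06 to 0.64), with an adjusted p of 0.0925 by limma.

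SLC38A2 (SNAT2), the sodium-coupled carrier known for induction when amino acids are withdrawn, had the second-widest range. Its values were 11.26, 11.29 and 11.13 in HLY hypoxia and 8.63, 8.90 and 8.71 in HLY normoxia. SUDHL2 gave 8.69, 8.52 and 8.35 in hypoxia and 10.94, 10.59 and 10.42 in normoxia. All 12 arrays were above background, so its folds are measured on both sides. HLY hypoxia exceeded HLY normoxia 5.58-fold (log2 2.48 ± 0.15, SE, adjusted p = 2.77e-09, limma), and SUDHL2 hypoxia lay 4.37-fold below SUDHL2 normoxia (adjusted p = 1.53e-08). Every HLY hypoxia array also stood above every SUDHL2 normoxia array, while the low groups overlapped. The difference between the high groups was 0.58 (95% CI 0.26 to 0.90) with an adjusted p of 0.0639 by limma, and SUDHL2 hypoxia minus HLY normoxia was -0.23 (95% CI -0.55 to 0.10).

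SLC38A1 (SNAT1), a related glutamine carrier, was measured by 2 probes. The brighter probe read 12.17, 12.01 and 12.02 in HLY hypoxia and 11.27, 11.35 and 11.29 in HLY normoxia. In SUDHL2 it read 11.28, 11.32 and 11.37 in hypoxia and 12.29, 12.03 and 11.72 in normoxia. It rose 1.70-fold in HLY hypoxia (log2 0.77 ± 0.14, SE, adjusted p = 0.000246, limma) and was 1.62-fold lower in SUDHL2 hypoxia (adjusted p = 0.000558). The like groups overlapped, with differences of 0.06 (95% CI -0.24 to 0.36) and 0.02 (95% CI -0.28 to 0.32).

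The other SLC38A1 probe separated SUDHL2 hypoxia from HLY normoxia, which the brighter probe did not. It read 8.41, 8.41 and 8.02 in HLY hypoxia, 7.63, 7.24 and 7.66 in HLY normoxia, 6.83, 6.82 and 6.78 in SUDHL2 hypoxia and 8.61, 8.19 and 8.29 in SUDHL2 normoxia. Its HLY response was 0.77 (adjusted p = 0.000765, limma), equal to that of the brighter probe to 2 decimals, but its SUDHL2 response was -1.55 (adjusted p = 1.09e-06). SUDHL2 hypoxia was lower than HLY normoxia by this probe, with a difference of -0.70 (adjusted p = 0.0119, limma). The probes of SLC38A1 therefore disagree on that comparison. Their average responses also differed in sign, at -0.39 by this probe (adjusted p = 0.0514, limma) and 0.04 by the brighter one (adjusted p = 0.856, limma). Which transcripts each probe reads was not examined.

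SLC7A5 (LAT1), the leucine carrier, gave 11.44, 11.03 and 11.56 in HLY hypoxia and 10.05, 10.07 and 10.14 in HLY normoxia. For SUDHL2 it gave 10.15, 10.30 and 10.56 in hypoxia and 11.22, 11.36 and 11.37 in normoxia. Hypoxia and normoxia arrays were apart under each label, in opposite directions. They were apart for 71.9% of all genes under the HLY label and 66.9% under the SUDHL2 label. The HLY level was 2.38-fold higher in hypoxia (log2 1.25 ± 0.15, SE, adjusted p = 5.21e-06, limma) and the SUDHL2 level 1.97-fold lower (adjusted p = 5.80e-05). In order of level HLY hypoxia and SUDHL2 normoxia came first and differed by 0.02 (95% CI -0.30 to 0.35). SUDHL2 hypoxia and HLY normoxia followed and differed by 0.25 (95% CI -0.08 to 0.58), without overlap but short of the test (adjusted p = 0.282, limma).

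SLC7A11 (xCT), the cystine carrier, was above background in only some of the groups. Its values were 6.84, 6.96 and 6.72 in HLY hypoxia and 4.87, 4.71 and 4.87 in HLY normoxia, where 0 of 3 arrays were above background. SUDHL2 hypoxia gave 5.84, 5.10 and 5.14, with 1 of 3 arrays above background, and SUDHL2 normoxia 6.26, 6.65 and 5.95. As deposited, the intensities behind these values were no higher than 331 on any array. HLY hypoxia was at least 1.92-fold above HLY normoxia (adjusted p = 7.27e-07, limma). SUDHL2 hypoxia was 1.90-fold below SUDHL2 normoxia (adjusted p = 0.00111, limma), a fitted fold with 1 of 3 hypoxia arrays above background. Under alternative settings other than the deposited z-scores that response ran from -1.15 to -0.35 on the log2 scale. Its residual SD of 0.28 exceeded that of 79.0% of all genes, the highest share among the 8.

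SLC7A11 was the one transporter to pass the test in the average response, on fitted values. Its average was 0.55 ± 0.14 (SE, adjusted p = 0.0292, limma), the mean of a response of 2.02 and a response of -0.92. The 2.02 is a fitted value against HLY normoxia, which was not above background, and with that response at its bound of 0.94 the average is 0.01, so the size of the average is not measured. The -0.92 is also a fitted value, with 1 of 3 SUDHL2 hypoxia arrays above background. HLY hypoxia against SUDHL2 normoxia, both above background, gave 0.55 without overlap and did not pass (adjusted p = 0.205, limma). SUDHL2 hypoxia against HLY normoxia sets 1 of 3 arrays above background against 0 of 3 and gives no measured difference (fitted 0.55, adjusted p = 0.0850, limma). The average call was lost, with adjusted p between 0.0507 and 0.0699, when any HLY array or SUDHL2 normoxia replicate 1 or 3 was left out, under median centring (adjusted p = 0.223), with the deposited z-scores (0.0816) and with no detection filter (0.0614).

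SLC3A2 (CD98, 4F2hc), the heavy chain that SLC7A5 and SLC7A11 share, did not follow its light chains under the SUDHL2 label. Its brighter probe read 10.11, 9.70 and 10.08 in HLY hypoxia and 9.48, 9.47 and 9.49 in HLY normoxia. SUDHL2 arrays read 9.52, 10.08 and 10.14 in hypoxia and 9.72, 9.84 and 9.82 in normoxia, so that these groups overlapped. The HLY rise was 1.40-fold (log2 0.48 ± 0.16, SE, adjusted p = 0.0183, limma), whereas SUDHL2 measured 0.12 (95% CI -0.23 to 0.47, adjusted p = 0.537). The responses differed by -0.36 (95% CI -0.86 to 0.13, adjusted p = 0.170, limma), which did not pass. That difference did pass under 2 of 20 alternative settings. Median centring gave -0.69 (adjusted p = 0.0470, limma), but it also moved the median difference of all genes from 0.05 to -0.33. The deposited z-scores gave an adjusted p of 0.0489 (limma). Without HLY hypoxia replicate 1 or 3 the HLY call was lost (adjusted p = 0.0712 and 0.0659). The average was 0.30 (adjusted p = 0.119, limma), and HLY hypoxia exceeded SUDHL2 normoxia by 0.17 with overlap (adjusted p = 0.681, limma). SUDHL2 hypoxia stood above HLY normoxia on every array, by 0.43 (adjusted p = 0.0895, limma). The dimmer SLC3A2 probe measured 0.33 for HLY (adjusted p = 0.142, limma) and -0.25 for SUDHL2 (adjusted p = 0.263, limma). For SUDHL2 hypoxia against HLY normoxia that probe gave -0.04 with overlap.

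SLC7A1 (CAT1), the arginine and lysine carrier, varied least, with group means that spanned 0.39 on the log2 scale. It read 11.61, 11.52 and 11.76 in HLY hypoxia and 11.43, 11.12 and 11.26 in HLY normoxia. SUDHL2 read 11.49, 11.42 and 11.43 in hypoxia and 11.41, 11.04 and 11.28 in normoxia. Under both labels every hypoxia array was above every normoxia array, where arrays did not overlap for 71.9% (HLY) and 66.9% (SUDHL2) of all genes. Under the SUDHL2 label the lowest hypoxia array read 11.42 and the highest normoxia array 11.41. There the intensities as deposited overlapped, at 1928 to 4283 in hypoxia and 2032 to 3095 in normoxia. The HLY rise was 1.28-fold (log2 0.36 ± 0.13, SE, adjusted p = 0.0281, limma), and SUDHL2 measured 0.20 (95% CI -0.08 to 0.49, adjusted p = 0.192). The difference of the responses was -0.16 (95% CI -0.56 to 0.25), and the average was 0.28 (95% CI 0.08 to 0.48, adjusted p = 0.0757, limma). That average passed under 4 of 20 alternative settings, with a lowest adjusted p of 0.0257 (limma). HLY hypoxia stood above SUDHL2 normoxia on every array, by 0.39 (adjusted p = 0.171, limma). SUDHL2 hypoxia exceeded HLY normoxia by 0.18 with overlap (adjusted p = 0.396, limma). The HLY call was lost without HLY hypoxia replicate 1 (adjusted p = 0.0556) or 3 (0.108) and without HLY normoxia replicate 2 (0.113) or 3 (0.0652).

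**Figure D2:**
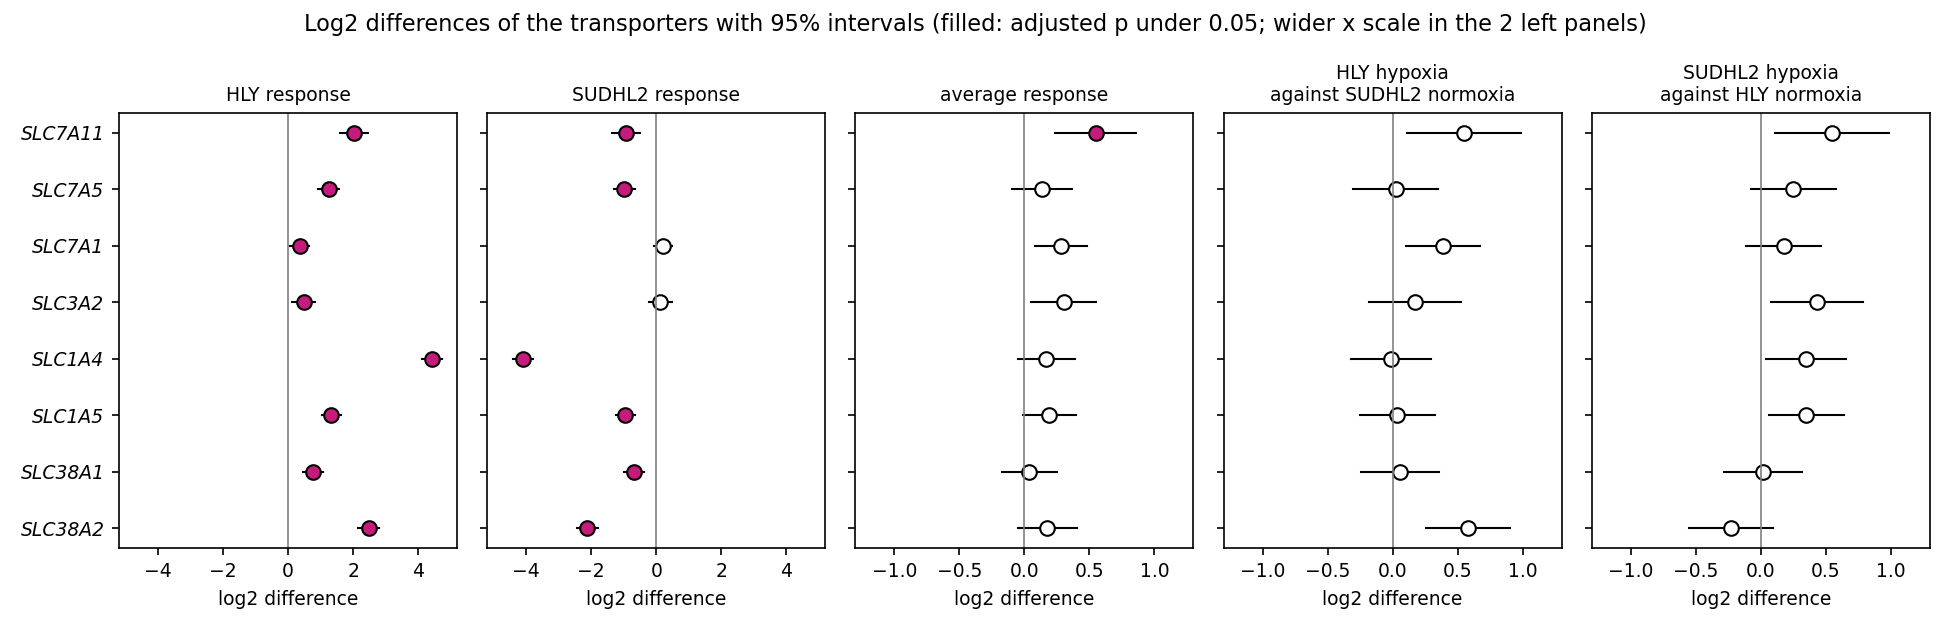
Log2 difference of each transporter in 5 comparisons, as points with 95% confidence intervals; filled points had an adjusted p under 0.05 by limma, and the response panels use a wider scale. The HLY response is positive for 8 of 8 and the SUDHL2 response negative for 6, while in the average and like-array panels only the average of SLC7A11 is filled.

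In the average and like-array comparisons 1 transporter passed the test. In the average response 1 of 8, SLC7A11, was called, against 9.54% of all genes, and 3 had an unadjusted p under 0.05. By their brightest probes the fitted averages of the 8 lay between 0.04 and 0.55, with a median of 0.18 against 0.02 over all genes. The other SLC38A1 probe averaged -0.39 (unadjusted p = 0.00435, adjusted p = 0.0514, limma), so the direction of the SLC38A1 average depends on the probe. The dimmer SLC3A2 probe averaged 0.04 (adjusted p = 0.889, limma). The averages of SLC7A11 and SLC1A4 rest on groups not above background, so their direction is not measured. Of the like-array comparisons, HLY hypoxia against SUDHL2 normoxia called 0 of 8 by limma (2.40% of all genes) and SUDHL2 hypoxia against HLY normoxia also 0 of 8 (15.9%). At an unadjusted p under 0.05 these were 3 and 4 genes by their brightest probes, all with the hypoxia arrays higher. The share of all genes at that unadjusted threshold was not counted, here or for the averages, so these counts have no background. By the other SLC38A1 probe SUDHL2 hypoxia was lower than HLY normoxia (-0.70, adjusted p = 0.0119, limma). Without moderation of the spread the gene-by-gene test called 0 in each like-array comparison after adjustment. Arrays did not overlap for 3 and 5 of the 8 genes, against 21.3% and 35.2% of all genes. The 4 and the 5 include SLC1A4, not above background on either side, and SLC7A11, above background on 1 of 6 arrays.

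Setting the lines against each other at the same oxygen gave the mirror image of the responses. In normoxia 6 of 8 transporters were lower in HLY than in SUDHL2, where 64.5% of all genes were called, and in hypoxia the same 6 were higher in HLY, where 66.6% were. SLC1A4 was at least 10.1-fold lower in HLY at normoxia (adjusted p = 2.95e-12, limma) and at least 9.47-fold higher at hypoxia (adjusted p = 6.62e-12). SLC38A2 differed by -1.90 in normoxia and 2.71 in hypoxia. SLC3A2 and SLC7A1 passed in neither, at -0.31 and 0.03 in normoxia and 0.05 and 0.18 in hypoxia. These comparisons use the same arrays as the responses and are no separate evidence.

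**Figure D3:**
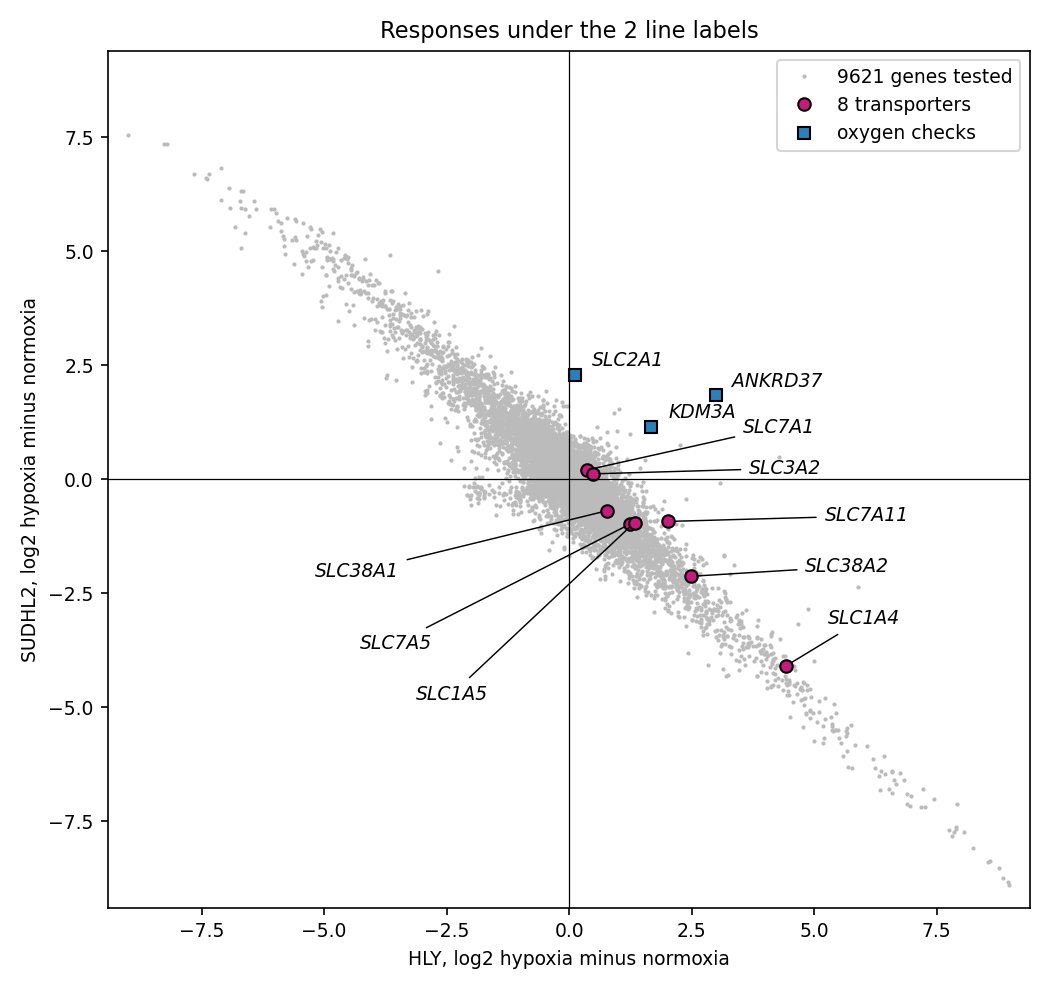
SUDHL2 response against HLY response on the log2 scale for 9621 genes (grey), with the 8 transporters and 3 hypoxia-induced genes marked. At lower right lie 6 transporters, with SLC1A4 at 4.43 and -4.09, and SLC7A1 and SLC3A2 lie near the origin, while the 3 hypoxia-induced genes are above 0 on the SUDHL2 axis.

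Short stretches of promoter are shown for the transporters whose windows match the ATF4 element, because most of these genes are known or proposed ATF4 targets. The RefSeq windows of GRCh38.p14 run from 250 bases before to 50 bases after each annotated start and matched 7 of the 8 genes, all but SLC7A11, with 13 windows. The C/EBP-ATF response element was searched as TGATGNAA on both strands and found in 5 of the 7 genes, and in 4.46% of 27305 genes and 3.62% of 35116 windows. Capitals mark the match, which reads as its reverse complement in SLC1A4 and SLC3A2.
SLC1A4, chr2:64989381-64989410, plus strand: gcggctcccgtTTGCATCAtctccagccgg
SLC3A2, chr11:62881719-62881748, plus strand: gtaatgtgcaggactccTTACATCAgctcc
SLC38A1, chr12:46266502-46266531, minus strand: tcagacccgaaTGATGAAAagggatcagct
SLC7A1, chr13:29595663-29595692, minus strand: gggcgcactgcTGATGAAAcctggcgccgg
SLC1A5, chr19:46784893-46784922, minus strand: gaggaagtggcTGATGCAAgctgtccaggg
The genes that hold the match span group means from 0.39 (SLC7A1) to 4.44 (SLC1A4), and those that do not are SLC7A5 (1.25) and SLC38A2 (2.71). A match is a run of letters and says nothing of binding in these cells.

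Other elements were searched in the same windows on both strands. The core of the hypoxia response element, ACGTG or GCGTG, was in 6 of the 7 genes and in 52.4% of all genes, and the antioxidant response element, TGACNNNGC, in 4 of the 7 and 16.1% of all genes. The E-box CACGTG, which MYC binds and which contains the hypoxia core on each strand, was in SLC7A5 and SLC1A5 and in 8.77% of all genes. SLC38A2 matched none of the 4 elements. The E-box stretches, with the E-box in capitals, are printed because SLC7A5 holds this element and no ATF4 match.
SLC7A5, chr16:87869620-87869649, minus strand: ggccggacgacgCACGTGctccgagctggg
SLC1A5, chr19:46787326-46787355, minus strand: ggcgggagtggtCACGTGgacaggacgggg

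Other amino acid transporters moved in both directions under each label. Of 45 listed, 14 were measured, and under the HLY label 7 rose and 2 fell, under the SUDHL2 label 1 rose and 5 fell. In all, 6 were called in opposite directions and 0 in the same direction, against 51.9% and 1.37% of all genes. Their median was 0.44 for HLY (0.29 with genes at their bound) and -0.02 for SUDHL2. In the average response, where 9.54% of all genes were called, 1 of the 14 was called higher and 1 lower. SLC36A1, a proton-coupled carrier of small amino acids, was higher by 0.49 on the fitted scale (adjusted p = 0.00815, limma), or by 0.17 with HLY normoxia, not above background, at its bound. SLC7A14, a member of the SLC7 family, was lower by 0.28 on the fitted scale (adjusted p = 0.0295, limma). Both its responses are bounds, at which the average is -0.21, so its direction is not measured. SLC7A14 was above background in the high groups alone, at least 21.5-fold higher in HLY hypoxia and at least 28.6-fold lower in SUDHL2 hypoxia. None of the 14 passed in both like-array comparisons. SLC1A1, a glutamate and cysteine carrier, was chosen after its values were seen. It ran against all 8 under the HLY label and against the 6 that fell under the SUDHL2 label. SLC1A1 was at least 5.11-fold lower in HLY hypoxia and at least 4.71-fold higher in SUDHL2 hypoxia (adjusted p = 2.04e-11 and 2.44e-11, limma).

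Genes of the ATF4 pathway mostly rose under the HLY label and fell under the SUDHL2 label. Of 23 listed, 20 were measured, and 15 rose and 2 fell under the HLY label, while 4 rose and 14 fell under the SUDHL2 label. Of all genes 33.1% rose and 32.4% fell under the HLY label, and 33.3% rose and 33.0% fell under the SUDHL2 label. Opposite calls under the labels were made for 16 of the 20, against 51.9% of all genes. Medians of the list were 0.83 for HLY and -0.79 for SUDHL2 (-0.55 with genes at their bound). ATF4 itself and asparagine synthetase (ASNS), chosen after their values were seen, changed by 1.20 and 2.39 for HLY and by -0.72 and -1.99 for SUDHL2, and neither passed in the average response (0.24 and 0.20, adjusted p = 0.135 and 0.177, limma).

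In the average response 5 of the 20 ATF4-pathway genes passed, 4 of them upward, against 9.54% of all genes called. ATF5, a transcription factor of the same family, averaged 0.57 (adjusted p = 0.000983, limma) and was higher in hypoxia in both like-array comparisons, by 0.51 and 0.62. Its responses ran in opposite directions, with means of 12.36 and 10.84 in HLY hypoxia and normoxia and 11.46 and 11.84 in SUDHL2. ATF3, a stress-induced repressor, averaged 0.61 (adjusted p = 0.00116) and was higher by 0.72 and 0.50 in them, although under the HLY label it measured -0.18 (adjusted p = 0.234). PPP1R15A, which directs dephosphorylation of eIF2-alpha, averaged 0.49 (adjusted p = 0.00669), and CHAC1, which degrades glutathione, 0.48 (adjusted p = 0.0177). EIF2AK4 (GCN2), the kinase that senses uncharged transfer RNA, was lower on average, at -0.51 (adjusted p = 0.0199, limma). Its means were 8.63 and 10.07 in HLY hypoxia and normoxia but 9.35 and 8.93 in SUDHL2, again in opposite directions. CHAC1 was above background on 0 of 3 arrays in HLY normoxia and in SUDHL2 hypoxia, so its average rests on bounds.

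Neither enzymes that use the imported amino acids nor the amino acid sensors of mTORC1 passed in the average response. Of all genes 9.54% were called in the average response, 65.5% in the HLY response and 66.2% in the SUDHL2 response. Of the 13 enzymes measured out of 18 listed, 4 rose and 6 fell under the HLY label, 5 rose and 5 fell under the SUDHL2 label, and 0 passed on average by limma, with 2 at an unadjusted p under 0.05. The largest fitted averages were 0.38 for CTH, which makes cysteine from cystathionine (adjusted p = 0.0574, and 0.10 with HLY normoxia, not above background, at its bound), -0.24 for glutathione synthetase GSS and -0.23 for GCLM, a subunit of the enzyme ahead of it. CTH was at least 9.78-fold higher in HLY hypoxia and changed by -3.08 for SUDHL2. Of 21 mTORC1 genes measured out of 24 listed, 9 rose and 5 fell for HLY, 3 rose and 6 fell for SUDHL2, and 0 passed on average by limma, with 2 at an unadjusted p under 0.05. The largest averages were 0.50 for the mTORC1 scaffold RPTOR (adjusted p = 0.193), 0.30 for its inhibitor TSC2 (0.281) and -0.22 for LAMTOR3 (0.162), which holds mTORC1 at the lysosome.

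**Figure D4:**
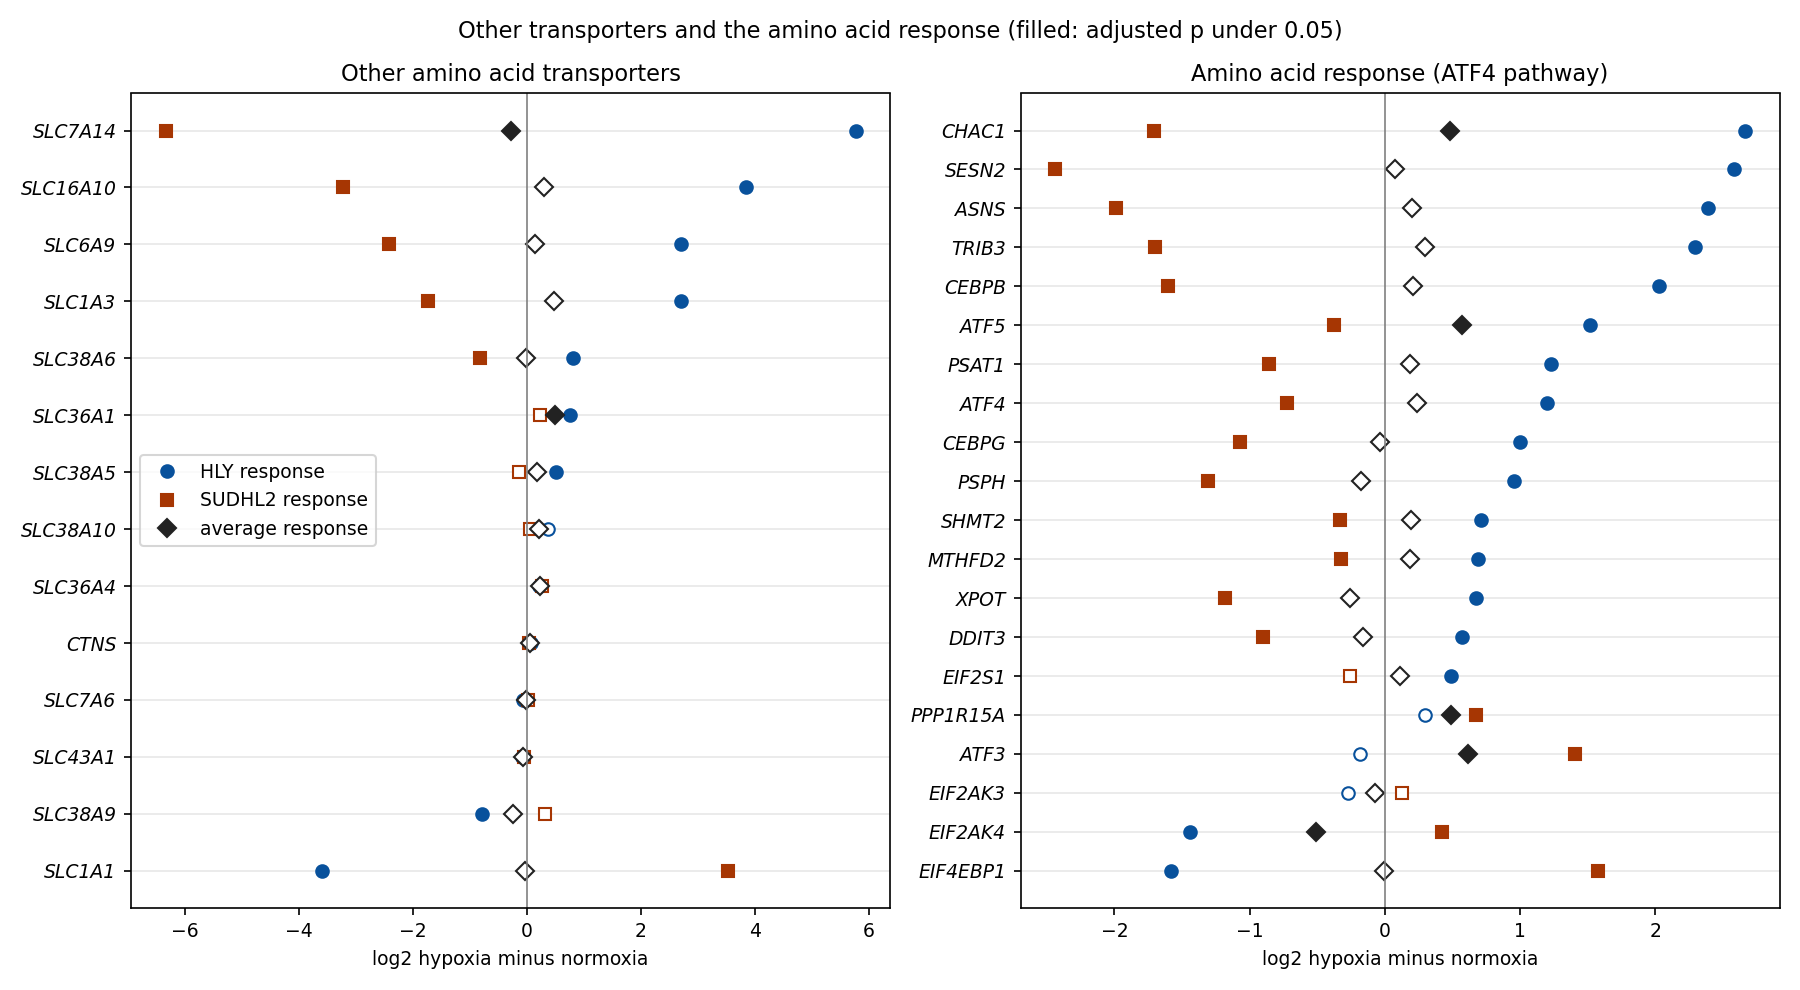
Log2 change of 14 other amino acid transporters and 20 ATF4-pathway genes in the HLY response, the SUDHL2 response and their average. Most HLY and SUDHL2 points of a gene lie on opposite sides of 0, and the averages lie near 0, with ATF3 highest at 0.61.

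The genes whose levels ran closest to each transporter were found by the root mean square difference of centred log2 values over the 12 arrays, for the 5 transporters whose group means spanned over 1. For SLC1A4 these were EPHA3, an ephrin receptor (0.17), and TSC22D3 (0.19). For SLC38A2 they were RBMS2 (0.14) and SEL1L (0.19), for SLC7A5 NHERF1 (0.11) and NAGLU (0.11), for SLC1A5 FAM193A (0.11) and TXNDC11 (0.11), and for SLC7A11 ZNF45 (0.20) and RCAN1 (0.21). All 10 had HLY hypoxia and SUDHL2 normoxia as their higher groups, for example TSC22D3 at 9.13 and 8.90 against 4.78 in HLY normoxia and 5.03 in SUDHL2 hypoxia. Low-group means of EPHA3, TSC22D3, RBMS2 and SEL1L, from 4.40 to 5.03, lay below the lowest signal above background on any array (5.67). The size of the split in these genes is therefore not measured. The arrays share that split for most genes, so likeness here is a description.

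**Figure D5:**
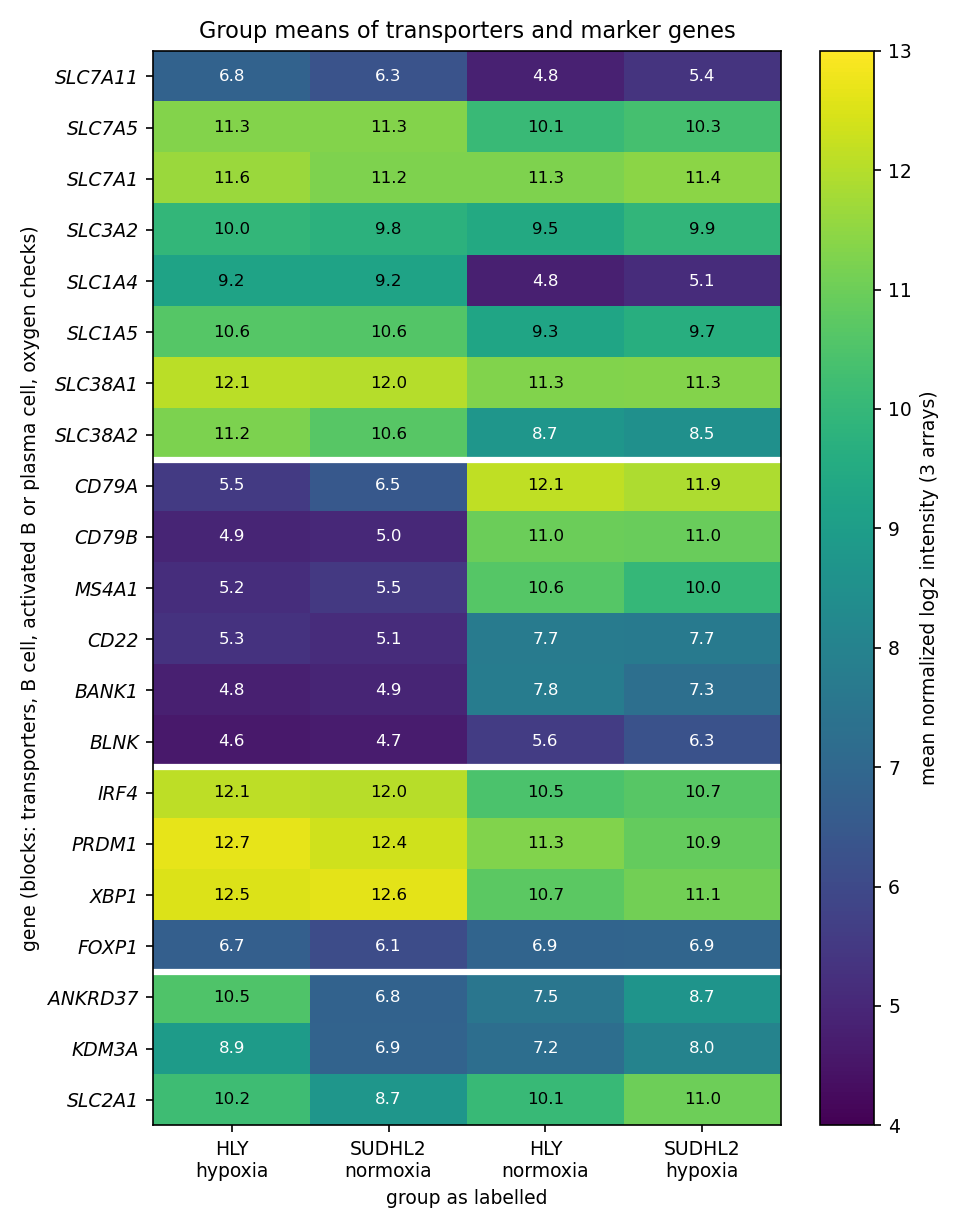
Heat map of group mean log2 levels, with the columns in the order HLY hypoxia, SUDHL2 normoxia, HLY normoxia and SUDHL2 hypoxia, for the 8 transporters, B-cell markers, activated B-cell and plasma-cell markers and 3 hypoxia-induced genes. The same 6 transporters and IRF4, PRDM1 and XBP1, but not FOXP1, are higher in the first pair of columns and B-cell markers such as CD79B are higher in the last pair.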

How the data were processed

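The study measured RNA of HLY-1 and SUDHL2 cells at 1% and 21% oxygen on 12 Illumina arrays, 3 per group, and groups were taken from the sample labels. The authors deposited an intensity per probe and array, exported with GenomeStudio (version 2011.1 in the submitters' processing notes) without normalization. Beside it the authors deposited a detection p-value from the negative control probes. The authors also deposited a score, which is the z-score of log10 intensity within an array (largest deviation from recomputed values 0.0109) and served as an alternative.

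Intensities were corrected by normexp from the detection p-values, quantile-normalized and log2-transformed by neqc (offset 16, limma 3.58.1, R 4.3.3). A probe entered when its detection p was below 0.01 on 3 or more arrays, and the brightest named probe stood for its gene (9621 genes, 2492 with several probes). Of 47230 probes 30113 had 1 gene symbol, 8 several and 17109 none. Group means were fitted with lmFit and moderated by eBayes in 8 comparisons (residual df 8, prior df 5.71), with Benjamini-Hochberg adjustment and a threshold of 0.05, and the code was tested on simulated data. A group with 0 of 3 arrays above background gives only a bound, written as at least N-fold, against the lowest signal above background or the probe's own value where higher. Promoter windows and figures used Python 3.11.15, pandas 2.3.3 and matplotlib 3.10.9. Every transporter is named with all its probes. Genes of the 4 pathway lists are named where they passed in the average response, or the 3 largest where none did, and other transporters also where they passed in both like-array comparisons. The 8 genes and the lists were chosen with earlier results of these data known. Alternatives were other background, scaling, filter, probe and test settings, a replicate block and leaving out each array.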

Additional observations from a re-analysis of the deposited data

Results flagged for a closer look

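The response to hypoxia differed between the line labels for 6 of the 8 transporters by the interaction term of the limma fit, given here as the SUDHL2 response minus the HLY response on the log2 scale. The difference was -8.52 for SLC1A4 (adjusted p = 4.03e-14), a fitted value that includes groups not above background and is no measured fold. It was -4.61 for SLC38A2 (adjusted p = 6.64e-11, limma), -2.95 for SLC7A11 (3.50e-07, also with HLY normoxia not above background), -2.28 for SLC1A5 (5.69e-08), -2.23 for SLC7A5 (3.04e-07) and -1.46 for SLC38A1 (1.08e-05). The same test passed for 73.8% of all genes, and the arrays' grouping across line labels accompanies all 6.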

How the results depend on the processing

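Counts of transporters that passed did not move beyond 1.5 times under any alternative for the HLY and SUDHL2 responses, their difference and the comparisons of lines at the same oxygen. In the average response, where 1 passed, 2 did without background correction, with the deposited z-scores and with trend and robust settings of eBayes (SLC7A11 and SLC7A1, but SLC7A1 and SLC3A2 with z-scores, where SLC7A11 lost its call), and 0 with median centring and with no detection filter. With probes detected on all 12 arrays SLC7A11 did not enter, and SLC7A1 passed in the average response (adjusted p = 0.0497, limma). For HLY hypoxia against SUDHL2 normoxia, where 0 passed, 1 did without background correction, with trend and robust settings and with probes detected on all 12 arrays. For SUDHL2 hypoxia against HLY normoxia, also 0, 1 did without background correction and with z-scores. Leaving out each array in turn gave 0 to 2 in the average response, 0 to 1 for HLY hypoxia against SUDHL2 normoxia (1 is SLC38A2, without SUDHL2 hypoxia or normoxia replicate 1) and 0 to 2 for SUDHL2 hypoxia against HLY normoxia (SLC3A2 and SLC1A5, without SUDHL2 hypoxia replicate 1).

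Of 1376 values of single transporters under alternatives, 1310 kept direction and side of the threshold, 19 lost a call, 22 gained one and 25 changed sign, all of these uncalled. With the mean of a gene's probes SLC3A2 gave -0.0643 in the SUDHL2 response and SLC38A1 gave -0.18 on average, -0.0117 for HLY hypoxia against SUDHL2 normoxia and -0.34 for SUDHL2 hypoxia against HLY normoxia. SLC1A4 in HLY hypoxia against SUDHL2 normoxia turned to 0.27 with median centring and 0.05 with z-scores, and SLC7A1 in the comparison of lines at normoxia to -0.0240 with median centring. Leaving out 1 array, values that changed sign ran for SLC3A2 from -0.142 to 0.184 for the lines at hypoxia, for SLC7A1 from -0.0743 to 0.110 for the lines at normoxia, for SLC1A4 from -0.174 to 0.121, SLC1A5 from -0.0835 to 0.0991, SLC38A1 from -0.0920 to 0.195, SLC7A5 from -0.0841 to 0.183 for HLY hypoxia against SUDHL2 normoxia, for SLC38A1 from -0.00811 to 0.0419 for SUDHL2 hypoxia against HLY normoxia, for SLC38A1 from -0.0371 to 0.107 in the average response. By a gene-by-gene test without moderation of the spread the HLY call of SLC7A1 (adjusted p = 0.0531) and the SUDHL2 call of SLC7A11 (adjusted p = 0.0729) were lost. The causes were not tested.

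Median centring shifted the median of all genes by over 0.1, to 0.29 in the HLY response, -0.33 in the difference of responses, 0.21 in HLY hypoxia against SUDHL2 normoxia, 0.28 in HLY against SUDHL2 at hypoxia and 0.11 in the average. Relative to these no called transporter changed direction. The share of higher calls moved from near balance to 67.7% in the HLY response, and to 38.4% in the difference. Genes called fell from 918 to 65 in the average, from 231 to 29 for HLY hypoxia against SUDHL2 normoxia and from 1526 to 10 for SUDHL2 hypoxia against HLY normoxia, and the unmoderated test gave 7 and 300 for the last pair. Leaving out an array gave 529 to 1322, 108 to 297 and 831 to 2151. Replicate numbers did not pair arrays (correlations of same-numbered deviations from -0.357 to 0.275, 3 of 18 over 0.1), and with the replicate number as a block the counts of transporters were 8 for HLY, 6 for SUDHL2, 6 for the difference, 1 for the average, 0 and 0 for the like-array comparisons and 6 and 6 for the lines at the same oxygen, all unchanged. The number of arrays limits precision, and dim signal leaves only bounds for SLC1A4 in HLY normoxia and SUDHL2 hypoxia and for SLC7A11 in HLY normoxia. In SUDHL2 hypoxia SLC7A11 was above background on 1 of 3 arrays, so its fold there is a fitted value.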
